A study of Mus musculus with 24 samples.

Results

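Cytochrome P450 enzymes outside the adrenal steroid pathway were examined in RNA-seq data of mouse adrenal glands and neuroblastoma tumors. The members were all genes of the deposited table whose name holds Cyp, a family number and a letter, apart from families Cyp11, Cyp21, Cyp26 and Cyp51, which left 92 of 21833 protein-coding genes. Despite this rule, Cyp17a1 and Cyp19a1 stayed in the set, and both enzymes make steroids (androgens and estrogens, respectively). They are given apart.

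The table held 24 libraries in 4 groups. AG were adrenal glands of mice labelled CRE - (n = 3), without recombination. AGM were tumor-free adrenal glands of MYCN +/-, CRE + mice (n = 5). TI were tumors of mice with an IGF2BP1 transgene and CRE + (n = 8; 7 labelled IGF2BP1 +/+ and 1 labelled +/-, 1 of the tumors from the adrenal gland per its label). TIM were tumors labelled IMP1/MYCN, CRE + (n = 8; 2 labelled as adrenal gland and 1 as spine), IMP1 being another name of IGF2BP1. In the CRE + mice, human transgenes in the Rosa26 locus, blocked by a stop cassette, were switched on by a Cre recombinase driven by the Dbh promoter, which is active in the sympatho-adrenal lineage. All mice were on a C57Bl6/N background. Libraries are named by their place among the columns of their group, since the columns carried no sample number.

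P450 enzymes are heme proteins that insert oxygen into lipids and foreign compounds. Most take electrons from NADPH through cytochrome P450 reductase (Por) in the endoplasmic reticulum, while the mitochondrial ones take them through ferredoxin reductase (Fdxr) and ferredoxin (Fdx1). Families 1 to 3 are best known for drug and toxin metabolism in hepatocytes, family 4 for fatty acid and leukotriene oxidation, and families 7, 8, 27, 39 and 46 for turning cholesterol into bile acids and oxysterols. The adrenal cortex is rich in P450 enzymes of steroid synthesis, whereas neuroblastoma arises from the sympathetic lineage.

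Promoters of members that were high in particular AGM libraries, and of the member that was highest in AG, are shown because 3 of them (Cyp8b1, Cyp3a11 and Cyp2c70) hold a letter pattern that some of the liver-type members described below carry, and Cyp2f2 does not hold it. The sequences are from RefSeq (build GRCm38.p6, the 250 bases before the first listed start, 5′ to 3′ on the gene's strand). Cyp8b1 lies at chr9:121916306-121916555 (minus strand), Cyp3a11 at chr5:145879855-145880104 (minus strand), Cyp2c70 at chr19:40187287-40187536 (minus strand) and Cyp2f2 at chr7:27119705-27119954 (plus strand). Capitals mark the letters CAAAGTCCA, bound by the hepatocyte factor HNF4.
Cyp8b1: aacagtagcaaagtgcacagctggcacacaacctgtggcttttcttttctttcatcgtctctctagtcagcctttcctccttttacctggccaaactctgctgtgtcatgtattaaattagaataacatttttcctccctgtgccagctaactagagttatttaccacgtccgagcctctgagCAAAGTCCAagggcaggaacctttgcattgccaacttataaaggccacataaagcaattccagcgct
Cyp3a11: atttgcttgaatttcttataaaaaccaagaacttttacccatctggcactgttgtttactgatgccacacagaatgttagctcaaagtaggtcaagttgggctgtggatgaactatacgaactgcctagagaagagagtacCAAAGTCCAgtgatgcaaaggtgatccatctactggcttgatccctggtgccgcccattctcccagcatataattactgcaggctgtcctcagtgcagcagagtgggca
Cyp2c70: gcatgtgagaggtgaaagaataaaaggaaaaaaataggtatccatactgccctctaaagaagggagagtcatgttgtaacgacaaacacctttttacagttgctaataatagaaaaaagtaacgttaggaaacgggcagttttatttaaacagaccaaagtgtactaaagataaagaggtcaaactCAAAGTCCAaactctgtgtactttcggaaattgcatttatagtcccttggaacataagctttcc
Cyp2f2: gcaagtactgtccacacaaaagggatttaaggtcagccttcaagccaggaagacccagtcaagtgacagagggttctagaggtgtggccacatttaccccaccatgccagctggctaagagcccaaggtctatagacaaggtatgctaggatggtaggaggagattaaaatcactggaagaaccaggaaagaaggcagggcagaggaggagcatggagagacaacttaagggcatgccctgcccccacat
The pattern began at -67 in Cyp8b1, -109 in Cyp3a11 and -64 in Cyp2c70, counted from the start. It was found on either strand in 11 of 72 member promoters with a RefSeq entry (15.3%), in 10 of 35 liver-type ones (28.6%), so most of these lacked it, and in 0.477% of 27025 promoters, all over the full 300-base windows that run 50 bases past the start. The E-box CACGTG, a MYC and MYCN motif, was in 2 of the 72 (2.78%) against 7.24% of all promoters, and the SF-1 letters CAAGGTCA in 0 of 72 against 1.53%. The HNF1 letters TTAATNATT were in 3 of 72 (4.17%) against 1.54%. These motifs were chosen after levels were known. Many members are neighbouring copies of one another, with all 15 Cyp2c genes on chromosome 19 and all 9 Cyp3a genes on chromosome 5, so their promoters are not independent.

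Values are FPKM as deposited, after the authors' TMM normalization (fragments per kilobase of gene and per 1000000 fragments). Their divisor was not the number of reads recovered from these values. In AG library 1, 747 reads of Cyp20a1 (2286 bases) stood for 3.05 FPKM, among 17467197 recovered reads. Levels and thresholds in FPKM, such as 1 FPKM, therefore hold on the deposited scale only. Outside the 126 genes above 1000 FPKM in some library, none of which is a member, the libraries held 12334076 to 23683176 reads, so a count of 0 allows up to 0.127 to 0.243 reads per 1000000. After the authors' batch correction, some genes took very large values in AGM and TIM. AGM library 3 held 1170004708 recovered reads in total, against 16635214 outside the genes above 1000 FPKM. Some members, described below, also had far more reads in AGM. Cyp8b1 had at most 1 read in any AG or TI library and up to 113388 in AGM. AG were sequenced in run 1 and AGM in run 2, and TIM in runs 2 and 3 only, so run and group cannot be told apart wherever AGM or TIM stand against AG. TI came mostly from run 1 (6 of 8 samples).

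The summed P450 level was higher in adrenal glands than in tumors. The summed level of the 92 members ranged from 94.3 to 117 FPKM in AG and from 282 to 2384 FPKM in AGM. In tumors it ranged from 6.41 to 11.2 FPKM (TI) and from 7.70 to 29.1 FPKM (TIM), without overlap of glands and tumors. Most of the AG sum was a single gene, Cyp2f2, at 68.5 to 72.4 FPKM, so these sums do not describe the other members. At least 1 FPKM was reached by 9 to 10 members per AG library, 12 to 46 per AGM library, 2 to 3 per TI library and 1 to 8 per TIM library. Over all libraries, 54 members reached 1 FPKM once, 38 never did and 6 of these were at 0 throughout (Cyp2c66, Cyp2d34, Cyp2j13, Cyp2j7, Cyp2w1 and Cyp4f40). Of the 86 members above 0, the highest group mean was in AGM for 67, AG for 8, TIM for 6 and TI for 5. Only 19 members passed the filter for testing (at least 1 FPKM in at least 3 libraries), and a member that passed through 1 group alone had to differ there.

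**Figure D1:**
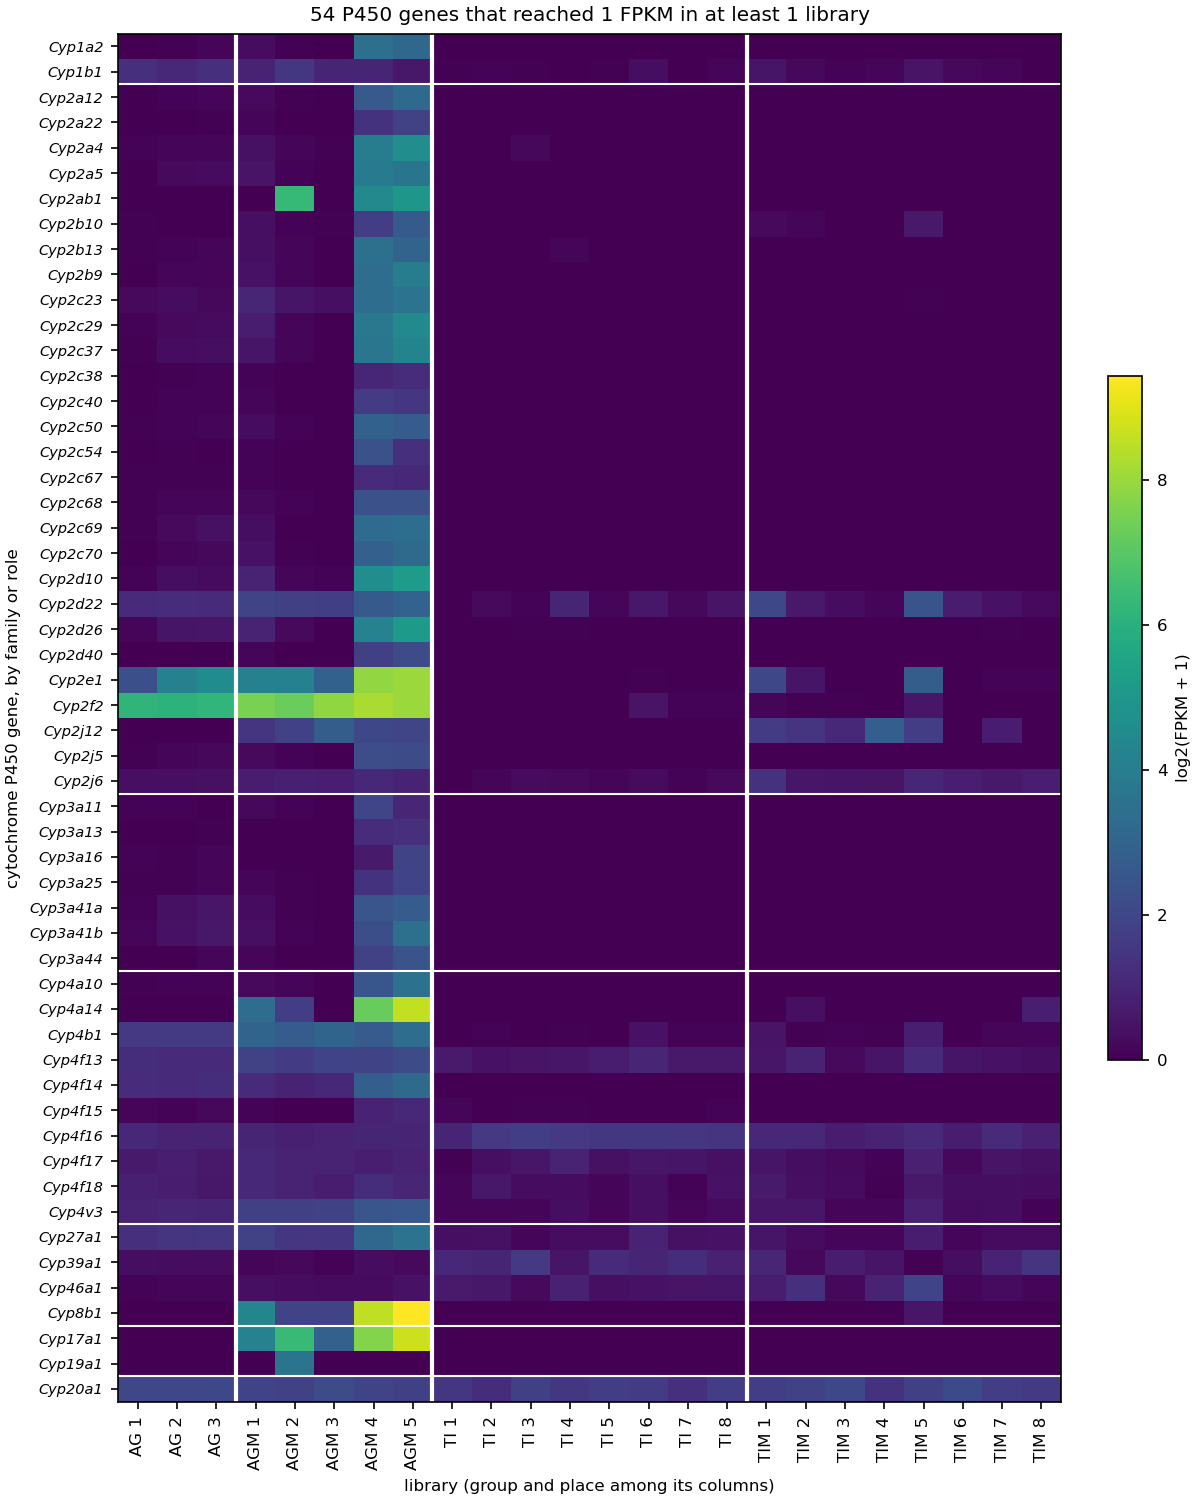
Log2(FPKM + 1) of the 54 members that reached 1 FPKM in at least 1 of 24 libraries (columns, by group; rows, by family or role). Bright cells of AGM libraries 4 and 5 span most liver-type rows, whereas Cyp2f2 is bright in every AG and AGM library and Cyp39a1 and Cyp4f16 stay visible in TI.

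Transcripts of tumors were first compared with those of AG. In TI, 9 of the 19 tested members fell and 2 rose (limma, FDR below 0.05). By limma-voom, 11 fell and 1 rose. Over all 10171 tested genes, 52.4% were called, 24.6% higher and 27.7% lower. The median difference of the 19 members was -0.47 on the log2(FPKM + 1) scale, against -0.00 over all tested genes. In TIM, 8 members fell and 2, Cyp2j6 and Cyp2j12, rose (8 and 0 by limma-voom), against 51% of all genes called, 22.5% higher and 28.5% lower. The median of the members was -0.25. Cyp1b1, Cyp27a1, Cyp2f2, Cyp4b1, Cyp4f14 and Cyp4v3 fell in both and reached 1 FPKM only in glands. They passed the filter through glands, so a fall in tumors was close to fixed and their calls carry little weight. Of the risen members, Cyp39a1 reached 1 FPKM only in tumors, and Cyp2j6 and Cyp2j12 only in AGM and TIM. Their rises carry the same limit, as do the medians. TI and TIM were compared with the same 3 AG libraries, so the lists share their controls.

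Cyp2f2, a family 2 enzyme known from the airway and liver and located on chromosome 7 (26819322 to 26833090, plus strand, GRCm39; ENSMUSG00000052974), had the highest level of all members in AG, at 72.3, 68.5 and 72.4 FPKM. In TI its lowest, median and highest levels were 0, 0.00247 and 0.412 FPKM, and in TIM they were 0, 0.0235 and 0.472 FPKM. The transcript was thus close to absent from all 16 tumors. It fell by 6.08 (SE 0.16, adjusted p = 4.68e-19, limma) in TI and fell by 6.06 (SE 0.16, adjusted p = 4.6e-19, limma) in TIM on the log2(FPKM + 1) scale.

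Cyp2e1, which oxidises ethanol and small solvents, had 3.89, 16.6 and 23.3 FPKM in AG. In TI it ranged from 0 over a median of 0 to 0.0308, and in TIM from 0 over 0.0601 to 5.96 FPKM. AG and TIM overlapped, because TIM library 5 exceeded the lowest AG library. The gene fell by 3.67 (SE 0.83, adjusted p = 0.000738, limma) in TI and fell by 2.99 (SE 0.83, adjusted p = 0.00445, limma) in TIM. In AG, the adipocyte markers Cfd (39.8, 358 and 520 FPKM) and Adipoq (19.6, 79.7 and 99.7 FPKM) were lowest in the library where Cyp2e1 was lowest and highest where it was highest. Their part in the Cyp2e1 level was not tested.

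Of family 1, Cyp1b1, which hydroxylates estrogens and polycyclic hydrocarbons, had 1.42, 1.14 and 1.39 FPKM in AG. Its lowest, median and highest levels were 0.0115, 0.0456 and 0.286 in TI and 0, 0.129 and 0.435 in TIM. No tumor reached the AG libraries. It fell by 1.11 (adjusted p = 4.92e-07, limma) in TI and fell by 0.99 (adjusted p = 2.56e-06, limma) in TIM. The liver enzyme Cyp1a2 stayed at 0.0055 FPKM or less in every tumor, and Cyp1a1 never reached 1 FPKM.

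In family 4, whose enzymes oxidise fatty acids and eicosanoids, 4 genes fell in both tumor groups. Cyp4b1 was at 1.99, 2.02 and 2.05 FPKM in AG, at most at 0.366 in TI and at most at 0.745 in TIM, and fell by 1.49 in TI and fell by 1.37 in TIM. Cyp4f14 was at 1.30, 1.25 and 1.35 FPKM in AG and at most at 0.0196 in TI and 0.00885 in TIM, and fell by 1.20 in each. Both were separated from AG in every tumor. Cyp4v3 (0.918 to 1.03 FPKM in AG) fell by 0.76 in TI and fell by 0.59 in TIM, and Cyp4f13 (1.16 to 1.33 FPKM in AG) fell by 0.50 in TI and fell by 0.56 in TIM. Adjusted p values of these 8 differences were between 1.58e-08 and 0.00525 (limma). Only Cyp4f13 in TIM overlapped with AG.

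Cyp4f16 went the other way in TI. Its AG levels were 1.06, 0.941 and 0.930 FPKM, and its TI levels had a minimum of 0.978, a median of 1.90 and a maximum of 2.40 FPKM. In TI library 1 the level lay within the AG range, whereas the other 7 lay above it. The gene rose by 0.50 (SE 0.12, adjusted p = 0.00097, limma) in TI. In TIM it had 0.684 to 1.22 FPKM and a difference of -0.01 (adjusted p = 0.95, limma). Cyp4f17 and Cyp4f18 did not pass the filter and had medians of 0.621 and 0.686 FPKM in AG, 0.409 and 0.248 in TI and 0.312 and 0.270 in TIM.

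Among sterol-oxidising members, Cyp27a1 and Cyp39a1 moved in opposite directions in TI. Cyp27a1, the mitochondrial sterol hydroxylase of bile acid synthesis, had 1.51, 1.77 and 1.85 FPKM in AG, 0.133 to 0.943 in TI and 0.0972 to 0.662 in TIM. It fell by 1.01 in TI (adjusted p = 0.00961, limma) and fell by 1.12 in TIM (adjusted p = 0.00481, limma), with all 16 tumors below AG. Cyp39a1, an oxysterol hydroxylase, had 0.263, 0.246 and 0.235 FPKM in AG. Its lowest, median and highest levels were 0.446, 1.05 and 1.93 in TI and 0.0468, 0.545 and 1.76 in TIM. All 8 TI tumors lay above AG and the gene rose by 0.72 (SE 0.21, adjusted p = 0.0069, limma), while TIM overlapped with AG (difference 0.34, adjusted p = 0.19, limma). With limma-voom on recovered reads, the rise of Cyp39a1 in TI missed the threshold (adjusted p = 0.063). Cyp39a1 reached 1 FPKM only in tumors, through which it passed the filter.

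Cyp46a1, the cholesterol hydroxylase of neurons, did not pass the filter. Its AG levels were 0.0539, 0.0896 and 0.0831 FPKM, and its medians were 0.433 in TI and 0.446 in TIM, with a maximum of 2.72 in TIM library 5. Of the 35 members below the filter that reached 1 FPKM, it is one of 3 whose highest value was not in AGM libraries 4 or 5, the others being Cyp19a1 and Cyp4f17. Cyp20a1, a member without a known substrate, had 3.05, 3.05 and 3.08 FPKM in AG and 1.38 to 2.41 in TI, and fell by 0.47 (adjusted p = 0.00568, limma). In TIM it had 1.61 to 3.29 FPKM, which overlapped AG.

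**Figure D2:**
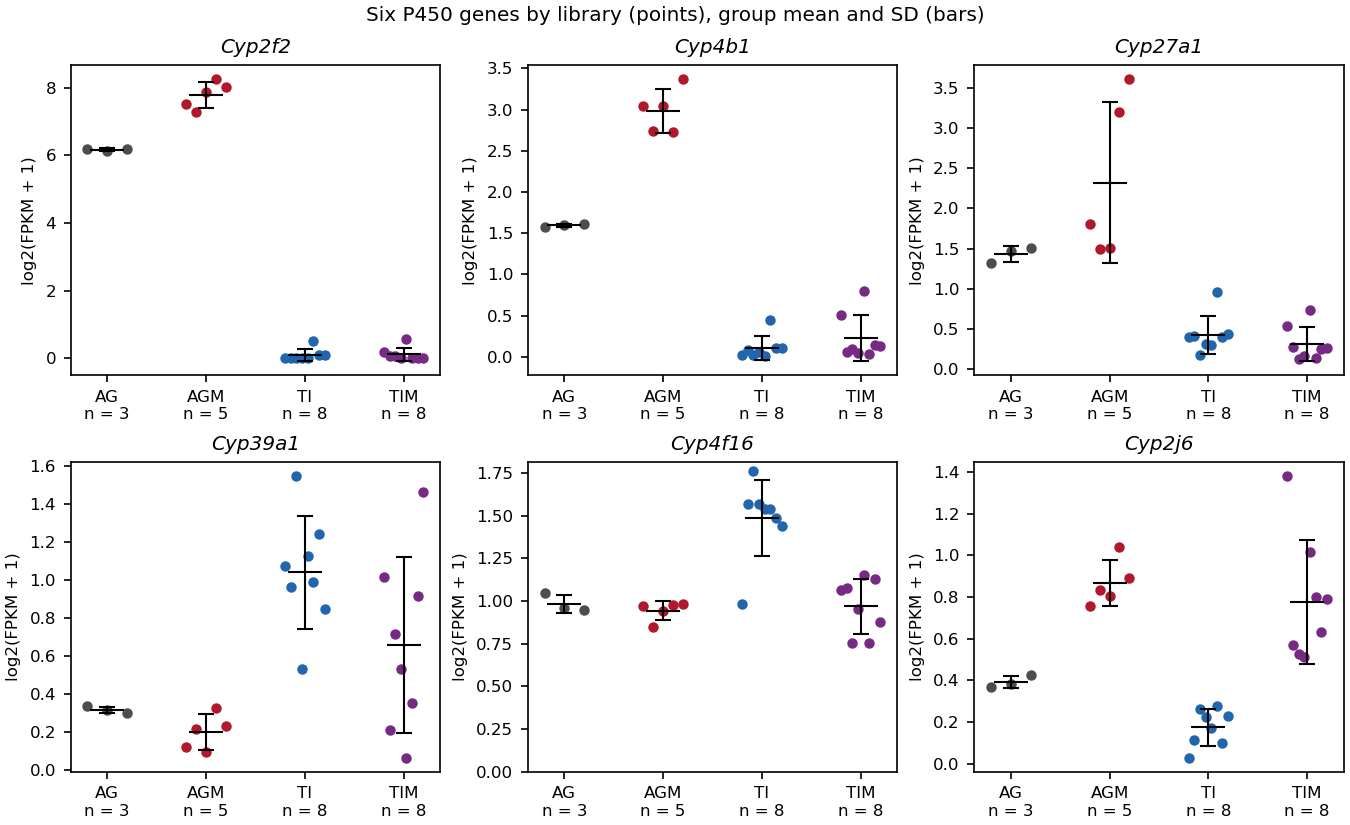
Log2(FPKM + 1) of Cyp2f2, Cyp4b1, Cyp27a1, Cyp39a1, Cyp4f16 and Cyp2j6 in AG (n = 3), AGM (n = 5), TI (n = 8) and TIM (n = 8); points are libraries, bars the group mean and SD. The first 3 genes sit near the bottom in every tumor, Cyp39a1 and Cyp4f16 are highest in TI, and Cyp2j6 is lowest in TI.

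Within TI, library 6 held the highest level of Cyp2f2, Cyp4b1, Cyp1b1, Cyp27a1, Cyp4f13 and Cyp4v3. In TIM, library 5 was highest for Cyp2f2, Cyp2e1, Cyp4b1 and Cyp4v3. The summed adrenal cortex markers (10 genes) were 697 to 740 FPKM in AG and 4278 to 6007 FPKM in AGM, while TI held 0.620 to 18.5 FPKM and TIM 1.28 to 15.0 FPKM. The 7 of them that never exceeded 1000 FPKM summed to 321 to 332 FPKM in AG and 1343 to 1847 in AGM. In TI these held 0.498 to 7.74 FPKM and in TIM 1.28 to 6.33. Adipocyte markers (8 genes) summed to 99.5 to 800 FPKM in AG and 318 to 1263 FPKM in AGM, while TI held 0.288 to 2.70 FPKM and TIM 1.19 to 61.3 FPKM. The part of cortex and fat tissue in the differences of the P450 genes was not tested. In bulk tissue, fewer cells of a type and less RNA per cell cannot be told apart. Chromaffin and sympathoblast markers (8 genes) were present in all groups, at 135 to 194 FPKM in AG and 133 to 1788 FPKM in TI.

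Y-linked genes also moved with the groups. The labels give no sex. The 4 genes Ddx3y, Eif2s3y, Kdm5d and Uty summed to 0 FPKM in all 3 AG libraries and to at most 0.0334 in AGM. In TI and TIM, 7 of 8 and 6 of 8 libraries were above this, with medians of 13.9 and 20.3 FPKM. The tumors at 0 were TI library 6 and TIM libraries 5 and 7. In TI library 6, all 9 lower members were below every AG library, and both higher members above. The 9 lay below AG in every TI library, so this tally was fixed by the list. In TIM libraries 7 and 5, 8 of 8 and 6 of 8 lower members were below every AG library, and most of the 8 were so in every TIM library. These tallies cannot show whether sex had a part, which was not tested.

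AGM glands were compared with AG to ask how tumor-free glands with the MYCN transgene differed from glands without it. Of the 19 tested members, 11 rose and 0 fell (limma). Of the 11, Cyp17a1, Cyp8b1, Cyp4a14, Cyp2ab1 and Cyp2c23 reached 1 FPKM only in AGM libraries. They passed the filter through AGM alone and could only be called higher there, so their calls carry no weight. Cyp2j6 and Cyp2j12, also among the 11, reached 1 FPKM only in AGM and TIM, so their calls carry little weight. Over all tested genes 28.6% were called, 14.6% higher and 14% lower, and at an unadjusted p below 0.05 the count of lower members was 0. By limma-voom on recovered reads, 5 members rose and 1 (Cyp20a1) fell. The median difference was 1.11 for the members and -0.00 for all tested genes. A rescaling that left out genes above 1000 FPKM moved the median of all genes by -0.45, and all 11 members stayed higher with and without that shift taken off. On this scale 9 of them were called (Cyp2j6 and Cyp4f13 were not), and Cyp20a1 was called lower (adjusted p = 0.04999, limma).

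The P450 levels of AGM differed between libraries. AGM libraries 4 and 5 had 31 and 32 of the 42 liver-type members (a list of P450 genes known from hepatocytes) at 1 FPKM or more, against 5, 4 and 4 in libraries 1, 2 and 3. The median level of these 42 members was 0.185, 0.0404 and 0.00601 FPKM in libraries 1, 2 and 3, and 4.08 and 5.53 FPKM in libraries 4 and 5. In AG it was 0.0279 to 0.0989 FPKM. Libraries 4 and 5 both exceeded every other library for 40 of 42 liver-type members (95.2%), for 12 of the 50 other members and for 6.12% of the 18862 genes above 0 in any library. Only Cyp4a12a and Cyp4a12b did not follow. Of 35 members below the filter that reached 1 FPKM, 32 were highest in one of these 2 libraries.

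Single liver-type genes showed the pattern. Cyp2c29, a drug-metabolising family 2 enzyme, had 0.64, 0.09, 0.02, 12.8 and 21.7 FPKM in AGM libraries 1 to 5, and 0.08, 0.17 and 0.20 FPKM in AG. Cyp2d10 had 0.92, 0.13, 0.05, 23.7 and 36.2 FPKM in the 5 AGM libraries. Cyp1a2 had 0.26, 0.04, 0.00, 10.1 and 7.99 FPKM, and Cyp3a11 had 0.16, 0.05, 0.00, 2.96 and 1.0 FPKM. In each case libraries 4 and 5 were the 2 highest, and library 1 came next. Cyp2e1 had 16.7, 16.6, 6.67, 239 and 256 FPKM, and a difference to AG of 1.75 (SE 0.89, adjusted p = 0.15, limma).

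The subfamilies moved in the same manner. Summed Cyp2c genes (15 genes) reached 3.44, 0.900, 0.382, 68.7 and 84.9 FPKM in AGM libraries 1 to 5. Summed Cyp2a genes (4 genes) reached 1.04, 0.226, 0.0515, 35.2 and 46.1 FPKM. Summed Cyp3a genes (9 genes) reached 1.01, 0.252, 0.0595, 17.8 and 28.6 FPKM. Each subfamily was lowest in library 3. Near-identical copies such as Cyp3a41a and Cyp3a41b, Cyp2a4 and Cyp2a5, or neighbours within Cyp2c and Cyp2d may share reads, and their single values are uncertain.

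Hepatocyte markers were high in the same libraries. Albumin (Alb) was at 20.9, 4.69, 0.70, 610 and 677 FPKM in AGM libraries 1 to 5 and at 0.46, 0.95 and 0.95 in AG. Apoa1 was at 10.7, 2.43, 0.34, 277 and 326 FPKM, and Ttr at 2.98, 0.50, 0.12, 63.0 and 94.2 FPKM. The 11 hepatocyte markers that never exceeded 1000 FPKM summed to 20.5 to 27.8 FPKM in AG and 14.1 to 1973 FPKM in AGM, while TI held 0.966 to 2.31 FPKM and TIM 0.553 to 10.4 FPKM. The hepatocyte factor Hnf4a had 0.18, 0.03, 0.00, 4.01 and 5.63 FPKM in AGM. The part of hepatocyte RNA in the AGM values was not tested. Kidney tubule markers (12 genes) summed to at most 2.02 FPKM in AGM, 0.176 in AG, 0.286 in TI and 21.2 in TIM. The pancreatic markers that never exceeded 1000 FPKM (9 genes) summed to 15.9 to 292 FPKM in AGM, against 2.39 to 2.74 in AG. In TI these held 0.611 to 3.58 FPKM and in TIM 0.555 to 37.1. All 12 pancreatic markers summed to 28515 to 428589 FPKM in AGM and 2.40 to 2.74 in AG. In TI they summed to 0.611 to 3.62 FPKM. In TIM they ranged from 0.555 over a median of 13510 to 3.59e+06 FPKM, so very large values were not particular to AGM. The part of pancreatic RNA was likewise not tested.

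**Figure D3:**
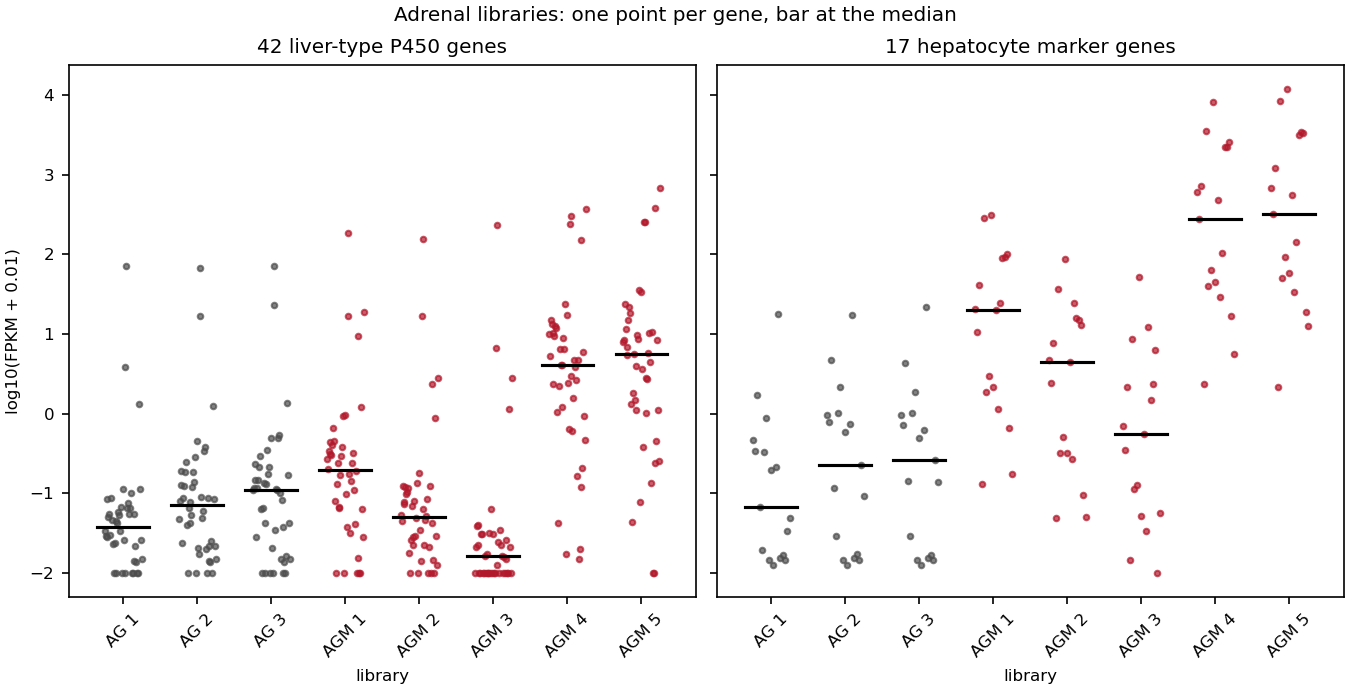
Log10(FPKM + 0.01) of 42 liver-type P450 genes and 17 hepatocyte markers in the 3 AG and 5 AGM libraries; each point is a gene and the bar the median. Both panels stand highest in AGM libraries 4 and 5, where the P450 medians are 4.08 and 5.53 FPKM.

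Without AGM libraries 4 and 5, 9 of the 11 members still rose (17.3% of all tested genes were called). Among these 9 were Cyp17a1, Cyp8b1, Cyp4a14 and Cyp2c23, which passed the filter only through AGM, and Cyp2j12, which passed through AGM and TIM. Cyp2f2 had 184, 157, 233, 305 and 258 FPKM in AGM libraries 1 to 5, all above AG. It rose by 1.62 (SE 0.17, adjusted p = 1.2e-07, limma), and by 1.40 without libraries 4 and 5. Cyp4b1 had 7.27, 5.68, 7.25, 5.60 and 9.31 FPKM and rose by 1.39 (adjusted p = 4.81e-07, limma), and by 1.35 without both libraries. Cyp4v3 (2.41, 2.48, 2.53, 4.58 and 4.92 FPKM) rose by 1.11 and Cyp4f13 (2.66, 2.19, 2.77, 2.87 and 3.43 FPKM) by 0.76. These 4 genes were thus also higher in the 3 AGM libraries where most liver-type genes were low, although the call of Cyp4f13 in all 5 libraries was lost on the rescaled FPKM (adjusted p = 0.082, limma). Cyp2f2 is itself on the liver-type list.

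Cyp2c23, an epoxygenase of arachidonic acid, had 1.01, 0.459, 0.306, 9.39 and 11.1 FPKM in AGM and 0.140 to 0.229 in AG. It rose by 1.54 (adjusted p = 0.021, limma), and by 0.41 (adjusted p = 0.0078, limma) without libraries 4 and 5. The call was lost with limma-voom (adjusted p = 0.106) and with the spread taken from AGM and AG only (adjusted p = 0.138). Cyp2j6, of another epoxygenase subfamily, had 0.691, 0.785, 0.746, 1.06 and 0.858 FPKM and rose by 0.47 (adjusted p = 0.0146, limma), but missed the threshold without libraries 4 and 5 (adjusted p = 0.086), on the rescaled FPKM (adjusted p = 0.070) and with limma-voom (adjusted p = 0.128). Cyp27a1 (2.50, 1.82, 1.83, 8.16 and 11.2 FPKM) had a difference of 0.89 (adjusted p = 0.0525, limma) and of 0.17 without libraries 4 and 5. Cyp4f14 (1.21, 0.878, 1.14, 6.02 and 8.49 FPKM) had a difference of 0.64 (adjusted p = 0.17, limma) and of -0.15 without them. Cyp27a1 and Cyp4f14 in AGM therefore lay near AG in libraries 1 to 3 and above it in 4 and 5. Cyp2d22, of the drug-metabolising Cyp2d cluster, had 1.16 to 1.32 FPKM in AG and 2.41 to 6.83 in AGM, without overlap (difference 1.08, adjusted p = 0.056, limma). In tumors Cyp2d22 had 0.0189 to 0.992 FPKM (TI) and 0.115 to 4.44 FPKM (TIM). Its difference in TI vs AG was -0.80 (adjusted p = 0.089, limma), and limma-voom called it lower (adjusted p = 0.012). Cyp2j6 in TI vs AG was also called lower by limma-voom (adjusted p = 0.030) but not by limma (adjusted p = 0.17).

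In 6 members, values above 1000 reads in AGM or TIM stood against no more than 10 reads in any library of AG or TI (Cyp17a1, Cyp19a1, Cyp2ab1, Cyp2j12, Cyp4a14 and Cyp8b1). This held for 489 of all 21833 genes. These values followed the authors' batch correction between runs, and its part in them was not tested. Cyp8b1, the sterol hydroxylase that makes cholic acid, had 18.9, 2.79, 2.81, 374 and 694 FPKM in AGM and at most 0.0049 in AG. Cyp4a14, a fatty acid hydroxylase, had 9.32, 2.34, 0.00479, 151 and 383 FPKM. Both were highest in libraries 4 and 5, and rose by 5.22 (adjusted p = 0.00111, limma) and 4.18 (adjusted p = 0.00783, limma). Cyp2j12 was at 1.74 to 5.82 FPKM in AGM and rose by 2.01 (adjusted p = 0.000888, limma).

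Cyp2ab1 was at 0, 78.8, 0, 20.8 and 31.4 FPKM in AGM libraries 1 to 5, with 2 libraries at 0, and rose by 3.15 (adjusted p = 0.0124, limma). It lost the call without libraries 4 and 5 (adjusted p = 0.13). Cyp17a1, needed for androgens and known to be silent in the adult mouse adrenal gland, was at 17.2, 81.5, 6.40, 206 and 420 FPKM in AGM and at no more than 0.0069 in AG. The difference was 5.96 (adjusted p = 1.75e-06, limma). Cyp19a1, the aromatase, was at 11.4 FPKM in AGM library 2 and at 0 in the other 4. By limma-voom on recovered reads, Cyp8b1, Cyp4a14, Cyp2j12 and Cyp2ab1 missed the threshold in AGM vs AG, with adjusted p values of 0.14 to 0.58, as did Cyp2c23 and Cyp2j6. With the spread of AGM and AG only, Cyp4a14 (adjusted p = 0.090, limma) and Cyp2ab1 (adjusted p = 0.11, limma) missed it too.

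**Figure D4:**
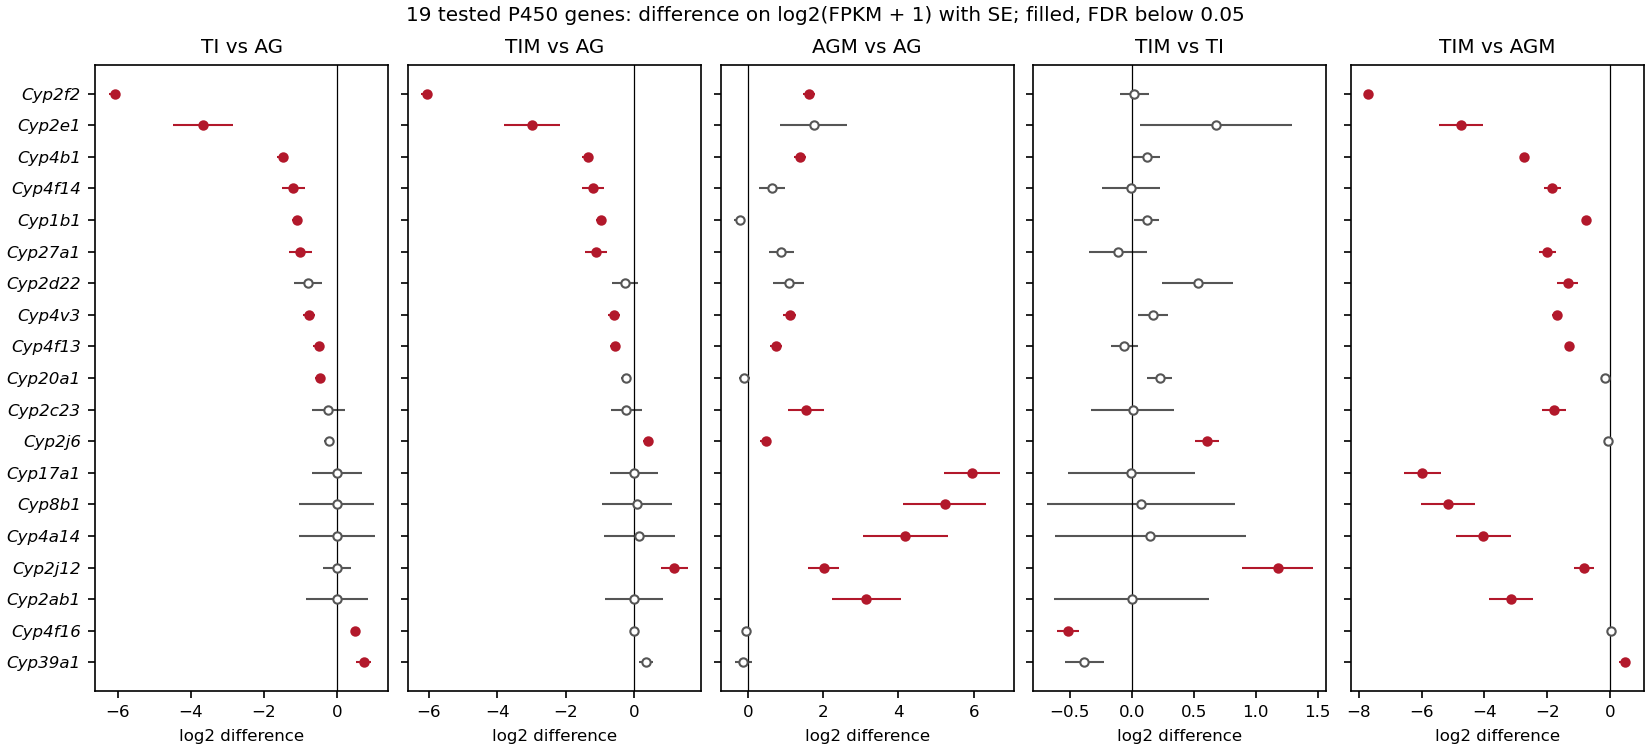
Difference on the log2(FPKM + 1) scale with its SE for the 19 tested members (rows, ordered by TI vs AG) in the 5 contrasts; filled points passed an FDR of 0.05 in limma. In TI vs AG and TIM vs AG most filled points lie left of 0, in AGM vs AG all 11 lie right of 0.

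TIM and TI were compared to ask how tumors with both transgenes differed from tumors with IGF2BP1 alone. The groups also differ in the dose of IGF2BP1, since 7 of 8 TI tumors were labelled IGF2BP1 +/+, while in TIM the IGF2BP1 and MYCN transgenes took the place of the wildtype Rosa26 locus. TI came mostly from run 1 and TIM from runs 2 and 3, and the columns could not be matched to runs. Between these groups, MYCN, the dose of IGF2BP1 and the run cannot be told apart. Only 3 of 19 members passed the test (22.9% of all tested genes, 10% higher and 12.9% lower), of which 2 rose and 1 fell (1 and 2 by limma-voom). Cyp2j6 had 0.0205, 0.147 and 0.210 FPKM as lowest, median and highest level in TI and 0.426, 0.640 and 1.60 in TIM. All 8 TIM tumors lay above all 8 TI tumors, and the gene rose by 0.60 (SE 0.10, adjusted p = 0.000213, limma). Cyp4f16 fell by 0.52 (SE 0.09, adjusted p = 0.000327, limma) to a TIM median of 1.02 FPKM. Cyp2j12 had at most 0.00534 FPKM in TI and 0, 1.43 and 6.01 FPKM as lowest, median and highest level in TIM, and rose by 1.18 (adjusted p = 0.00565, limma). It was not called by limma-voom (adjusted p = 0.11) and is one of the 6 members with few reads in AG and TI. Cyp2j6 and Cyp2j12 reached 1 FPKM only in AGM and TIM libraries. They passed the filter through groups where they were high, so their rises over TI carry little weight. Cyp39a1 had a difference of -0.38 (adjusted p = 0.083, limma), which passed the threshold on the rescaled FPKM (adjusted p = 0.047, limma), with limma-voom (adjusted p = 0.037) and without TI library 4 (adjusted p = 0.037, limma) or TIM library 8 (adjusted p = 0.012, limma). Cyp2f2 did not separate the tumor groups (difference 0.02, SE 0.12).

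TIM tumors and AGM glands both carried MYCN. All 5 AGM samples came from run 2, while 3 TIM samples came from run 2 and 5 from run 3. By the paper, mice with MYCN alone were also older when culled than the median mouse with both transgenes. Run and age thus differed between these groups as well. Of the 19 members, 15 were lower in TIM and 1, Cyp39a1, was higher (65.3% of all tested genes were called, 31.9% higher and 33.4% lower). The 15 include Cyp17a1, Cyp8b1, Cyp4a14, Cyp2ab1 and Cyp2c23, which passed the filter only through AGM. Cyp1b1, Cyp27a1, Cyp2f2, Cyp4b1, Cyp4f14 and Cyp4v3, also among them, reached 1 FPKM only in glands, and Cyp39a1 only in tumors. The calls of these genes carry little weight. Without AGM libraries 4 and 5, 14 were called against 53.4% of all genes. Cyp2f2 fell by 7.69 on the log2 scale, with 0 to 0.472 FPKM in TIM against 157 to 305 in AGM. Cyp4b1 fell by 2.76, Cyp27a1 fell by 2.01, Cyp4f14 fell by 1.84, Cyp4v3 fell by 1.70 and Cyp4f13 fell by 1.32, all without overlap of the groups. Cyp39a1 rose by 0.46 (adjusted p = 0.03, limma), which missed the threshold without AGM libraries 4 and 5 (adjusted p = 0.057), with limma-voom (adjusted p = 0.10) and with the spread of these groups only (adjusted p = 0.058). Cyp2j6, Cyp4f16 and Cyp20a1 did not pass the test (adjusted p of 0.49, 0.82 and 0.23, limma).

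Partners of the P450 enzymes, a list of 37 electron donors, heme enzymes and receptors, were measured next to them, and 30 were tested. In TI 18 fell and 0 rose, and in TIM 18 fell and 1 rose. In AGM 11 rose and 1 fell. In TIM vs TI 3 rose and 3 fell, and in TIM vs AGM 27 fell and 0 rose. At an unadjusted p below 0.05 the counts that were higher were 0 in both TI vs AG and TIM vs AGM, by limma-voom likewise 0. By limma-voom, 6 rose and 5 fell in AGM vs AG, and 1 rose and 5 fell in TIM vs TI. The shares of all genes called are those given above for each contrast. Nr0b2, Nr1i2, Nr5a2, Ahrr and Vdr are among the 11 and the 27, and passed the filter through AGM alone. Their means were at most 0.0194 FPKM in AG and 0.251 in TIM. They could only be called higher in AGM than in AG and lower in TIM than in AGM, so these calls carry no weight.

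Fdxr and Fdx1, the mitochondrial donors, had 110.7, 114 and 99.5 FPKM and 26.9, 32.4 and 31.5 FPKM in AG. In TI Fdxr had a range of 2.08 to 4.11 and Fdx1 of 0.54 to 3.11 FPKM, and Fdxr fell by 4.90 and Fdx1 fell by 4.05. Neither donor changed past the threshold in AGM (-0.29 and 0.18). Por, the donor of microsomal P450 enzymes, had 17.7, 17.9 and 21.7 FPKM in AG and 3.51 to 6.33 in TI, and fell by 1.87 in TI and fell by 1.56 in TIM. Cyb5b, an outer mitochondrial cytochrome, fell by 3.95 in TI, fell by 4.28 in TIM and fell by 1.77 in AGM. Alas1, the first enzyme of heme synthesis, had 14.0, 15.3 and 16.7 FPKM in AG and 0.36 to 1.45 in TI, and fell by 3.25 in TI and fell by 2.62 in TIM. Ephx1, an epoxide hydrolase, fell by 3.88 in TI and fell by 3.31 in TIM.

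Receptors that set P450 levels in liver were measured as well. Nr1i2 (PXR) had 3.17, 0.0043, 0, 92.9 and 128 FPKM in AGM and at most 0.0040 in every other group, and Nr5a2 had 38.0, 26.6, 12.3, 122 and 118 FPKM. Nr0b2 (SHP) had 27318 to 47892 FPKM in AGM and at most 0.0386 FPKM elsewhere. All 3 were higher in AGM, by 3.12, 5.52 and 15.12 on the log2(FPKM + 1) scale. With Ahrr they are the 4 partners, all among the 11 that rose, that held 1000 reads or more in at least 1 AGM library against at most 3 in any library of AG or TI, as in the 6 members above. The part of the batch correction in these values was likewise not tested, and by limma-voom Nr1i2 missed the threshold (adjusted p = 0.53). Nr1i3 (CAR) was not tested, with 1.93 and 3.55 FPKM in AGM libraries 4 and 5 and at most 0.17 in the other AGM libraries. Ahr, the receptor of dioxin, was also not tested, with 0.05 to 0.29 FPKM over all libraries.

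**Figure D5:**
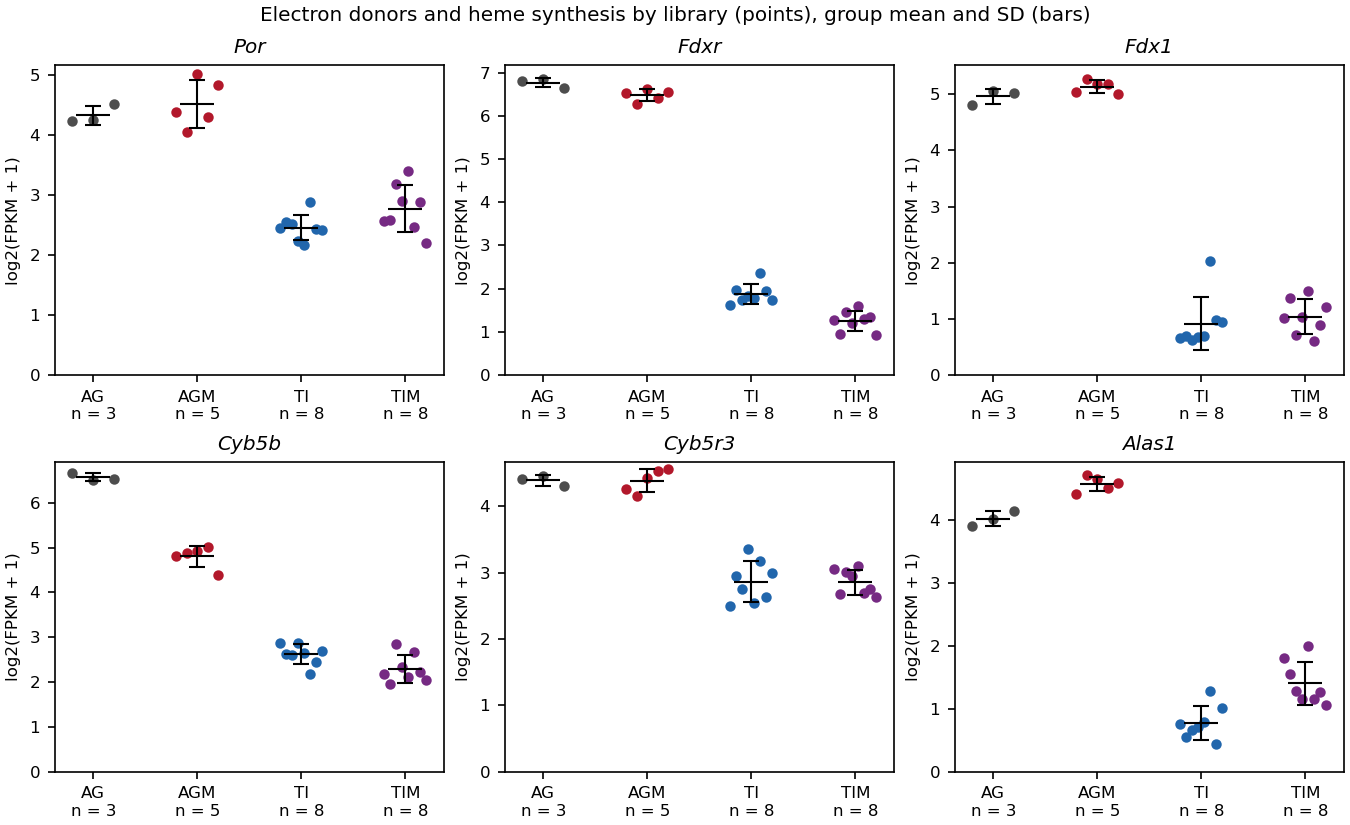
Log2(FPKM + 1) of Por, Fdxr, Fdx1, Cyb5b, Cyb5r3 and Alas1 in AG (n = 3), AGM (n = 5), TI (n = 8) and TIM (n = 8); points are libraries, bars the group mean and SD. In all 6 panels the tumors lie below the AG libraries.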

How the data were processed

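RNA from 24 mouse samples was sequenced as poly(A)-enriched, strand-specific libraries. The authors trimmed reads with cutadapt 2.8, aligned them with HISAT2 2.1.0 to mm39, used SAMtools 1.10, counted with featureCounts 2.0.0 (per the submitters' processing notes), corrected a batch effect with ComBat-seq and normalized by TMM in edgeR 3.40. The annotation was not given in the sources used here. The deposited values were FPKM, with the gene length. The table also held 9 columns of the authors' own comparisons (log2 fold changes, p-values, FDR of AGM, TI and TIM against AG), which were not used. Such correction moves values of genes with few reads in one run.

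Columns named groups only. The sources used here do not state that each library came from a separate mouse, so p-values measure the spread between these samples. FPKM times length gave whole multiples of one step in 100% of values (tolerance 0.01), which returned reads after correction. Models were fitted in limma 3.58.1 (R 4.3.3; lmFit, eBayes with trend) to log2(FPKM + 1) for 10171 genes, those that reached 1 FPKM in 3 or more libraries, over all 24 libraries and 4 groups without covariates, with Benjamini-Hochberg adjustment over all tested genes (FDR below 0.05). Differences on this scale understate those of genes with low values. The code was tested on simulated data. Alternatives were a pseudocount of 0.1, no or a stricter filter, the spread from 2 groups, FPKM on a library size without genes above 1000 FPKM, limma-voom on recovered reads and leaving out libraries. Members past the filter were named with their levels, and of those past the FDR at most 10 per contrast by size in detail. Members below it were named where they reached 1 FPKM, singly or by subfamily. Members and lists were chosen with earlier results of these data known. All 92 members matched GENCODE M39 on GRCm39. The check of depth and the counts of reads cover counting error only.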

Additional observations from a re-analysis of the deposited data

Results flagged for a closer look

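Within groups of 5 or 8 libraries, 16 of 56 sets of member values held a library far from the others by Dixon's ratio on log2(FPKM + 1). Chance gives about 1 in 20 for normally distributed values. That rate does not hold for sets that are mostly 0, where a single library with any read is flagged. The count of 16 is thus no measure of an excess. In TI, 7 of the 16 flags were the highest value of library 6. They were Cyp2f2 at 0.412 FPKM (next 0.0727), Cyp4b1 at 0.366 (next 0.0771), Cyp27a1 at 0.943 (next 0.362), Cyp1b1 at 0.286 (next 0.130), Cyp4f13 at 0.9996 (next 0.626), Cyp2e1 at 0.0308 (next 0.0140) and Cyp4a14 at 0.00365 (others 0). All but Cyp4a14 stayed below every AG library, whose Cyp4a14 values were likewise under 0.004 FPKM. The summed adrenal cortex markers below 1000 FPKM were 7.74 FPKM in this library, the highest in TI, and its Y-linked genes were at 0. The part of either was not tested.

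In TIM, library 5 stood apart for Cyp2f2 at 0.472 FPKM (next 0.126), Cyp8b1 at 0.485 (next 0.00484) and Cyp2c23 at 0.0356 (next 0.00496). Its summed adipocyte markers were 61.3 FPKM, the highest in TIM. Further values were 1 or 2 reads against 0 in the other libraries, namely Cyp17a1 at 0.00316 and Cyp2ab1 at 0.00278 FPKM in TIM library 7, Cyp4f14 at 0.00885 (2 reads) in TIM library 2 and Cyp8b1 at 0.00532 in TI library 2. Cyp4f16 was the lowest in TI library 1, at 0.978 FPKM (next 1.71), and in AGM library 2, at 0.798 FPKM (next 0.921).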

How the results depend on the processing

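No paired analysis was possible because the columns carry no replicate numbers of the labels. With at least 1 FPKM required in every library, 1 member (Cyp20a1) could be tested, which left a count of 1 call in TI vs AG and of 0 in the other 4 contrasts. With no filter, 86 members were tested and the calls rose from 3 to 5 in TIM vs TI and from 16 to 61 in TIM vs AGM. With limma-voom on recovered reads, calls in AGM vs AG fell from 11 to 6, 5 of them shared. The other counts stayed within 1.5 times of the reported ones. Rescaled FPKM shifted the median of all genes by -0.45 in AGM vs AG, 0.30 in TIM vs AGM, -0.15 in TIM vs AG and -0.13 in TIM vs TI, and no called member changed sign. On that scale TIM vs TI gave 2 higher and 2 lower calls. With the spread from 2 groups only, TIM vs AG gave 0 higher and 9 lower calls.

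Leaving out 1 library gave 11 to 11 calls in TI vs AG, 9 to 10 in TIM vs AG, 9 to 15 in AGM vs AG (15 without AGM library 2), 3 to 4 in TIM vs TI and 14 to 16 in TIM vs AGM. Single calls lost were Cyp2c23 in AGM vs AG (without AGM library 4 or 5 or any AG library, adjusted p 0.054 to 0.065), Cyp2j6 in AGM vs AG (without AG library 1, 0.053) and in TIM vs AG (without AG library 1 or 2, 0.054 to 0.057), Cyp2j12 in TIM vs AGM (without AGM library 3 or TIM library 6 or 8, 0.054 to 0.097) and Cyp39a1 in TIM vs AGM (without AGM library 1 or 3 or TIM library 1, 7 or 8, 0.053 to 0.062). Levels worth fewer than 3 reads cannot be told from 0 at this depth.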

Other observations

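Some liver P450 genes are known to differ between female and male mice, and their levels in AGM libraries 4 and 5 are given here as values, chosen after they were seen. Of genes known as higher in female liver, Cyp2a4 was at 14.9 and 23.6 FPKM, Cyp2b9 at 9.40 and 15.2, Cyp2b13 at 10.2 and 6.96, Cyp3a41a at 4.65 and 5.76 and Cyp3a44 at 2.67 and 4.44. Of genes known as higher in male liver, Cyp2d9 was at 0.62 and 0.37 FPKM and Cyp4a12a at 0.005 and 0 FPKM. In AG, Cyp2d9 was at most at 0.0071 and Cyp4a12a at most at 0.0039 FPKM, so Cyp2d9 was also higher in these libraries. The genes named are not a complete list. Ddx3y, Eif2s3y, Kdm5d and Uty were at 0 in both libraries.

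Of the vitamin D enzymes, Cyp24a1 and Cyp27b1 stayed below 1 FPKM in every library, at most at 0.403 and 0.147 FPKM, and so did the first enzyme of vitamin D activation, Cyp2r1, at most at 0.241 FPKM. Cyp7a1, the rate-limiting enzyme of bile acid synthesis in liver, reached 0.451 FPKM in AGM library 4 and 0.246 in library 5, and at most 0.0316 in AG. Cyp7b1 had 0.0877 to 0.103 FPKM in AG, 0.196 to 0.848 in AGM and at most 0.184 in TI and 0.150 in TIM. Cyp2u1 had medians of 0.101 FPKM in AG, 0.405 in AGM, 0.178 in TI and 0.305 in TIM. None of these genes passed the filter for testing.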
